A study of Mus musculus with 2 samples.

Results

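The cells described here were chosen by their transcripts from the epidermis of 2 Chrm3 KO mice. A cell was kept when it held at least 10 unique molecular identifiers (UMIs, tags that let each captured transcript be counted once) of keratin and trichohyalin genes of the inner root sheath and hair shaft, and at most 1 UMI of Shh. The rule names 7 such genes, of which Krt25, Krt27, Krt28, Krt71, Krt35 and Tchh (6 genes) were used, and Krt85 was not analysed here. It found 542 of the 19488 cells that passed the study's filter, 209 of 7607 in KO mouse 1 and 333 of 11881 in KO mouse 2. They are called the selected cells below.

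Dorsal skin came from male C57BL/6J mice at postnatal day 0 that lack Chrm3, which encodes the M3 muscarinic receptor for acetylcholine, and epidermal cells were profiled by scRNA-seq, with 1 library per mouse. The libraries held 10816 barcodes and 109756784 UMIs in KO mouse 1, and 15867 barcodes and 166441732 UMIs in KO mouse 2. Both mice carry the same KO and wild-type libraries were not analysed here, so every comparison is between cells of the KO epidermis and none is between genotypes. Chrm3 itself gave 1 UMI in the selected cells of KO mouse 1 and 0 of 6805840 UMIs in KO mouse 2, where a count of 0 allows up to 0.441 CPM (UMIs of a gene scaled to the same total in every sum of cells). Chrm3 was near 0 in the other cells too, at 0.209 and 0.173 CPM, so a UMI count does not check the genotype in these cells.

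A hair follicle grows from dividing matrix cells that surround the dermal papilla. Their daughters move upward and form concentric layers, with the hair shaft in the middle, the inner root sheath around it and a companion layer between the inner and the outer root sheath. KRT25, KRT27 and KRT28 are type I keratins of the inner root sheath and pair with the type II keratins KRT71 to KRT74. Trichohyalin, made from Tchh, hardens the inner root sheath and the medulla after its arginines are converted by peptidylarginine deiminases and transglutaminases cross-link it. KRT35 is a type I keratin of the early hair shaft, and Shh marks a set of matrix cells.

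The genes of the rule went only in part with the working label of inner root sheath and hair shaft cells. Krt28 was the most abundant of the 6 genes in 420 of the 542 selected cells, Krt35 in 76, Krt25 in 23, Tchh in 15, Krt27 in 5 and Krt71 in 3. In 402 cells (74.2%) not 1 UMI of Krt71 or Tchh was found, and 16 cells held 10 or more UMIs of either gene. In most of those 16 cells, and of the 15 led by Tchh, over 1% of UMIs were of Krt1 and Krt10 (described below). The 6 genes chose the cells, so their counts are a description and not a test of the label. The selected cells are described below by their rule, as cells mostly led by Krt28. They are not named as formed inner root sheath or hair shaft.

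Krt25, Krt27 and Krt28 lie near each other on chromosome 11 of GRCm38 (mm10). Krt28 spans chr11:99364872-99374903, Krt27 chr11:99345565-99351104 and Krt25 chr11:99315516-99322951, all on the minus strand. Krt35 lies farther along the same chromosome, at chr11:100092193-100096241, whereas Krt71 lies at chr15:101733949-101743109 and Tchh at chr3:93442330-93449077. The 250 bases upstream of the start of Krt28, Krt25 and Krt71 are shown because transcripts of Msx1, Msx2 and Dlx3, whose homeobox proteins as a class bind TAAT cores, were among the largest rises of the selected cells over the others (given below). The windows are RefSeq sequence of GRCm38.p6 on the coding strand, at chr11:99374904-99375153, chr11:99322952-99323201 and chr15:101743098-101743347, and capitals mark TAATTA and TAATTG as read on either strand (CAATTA is TAATTG on the other strand).
Krt28: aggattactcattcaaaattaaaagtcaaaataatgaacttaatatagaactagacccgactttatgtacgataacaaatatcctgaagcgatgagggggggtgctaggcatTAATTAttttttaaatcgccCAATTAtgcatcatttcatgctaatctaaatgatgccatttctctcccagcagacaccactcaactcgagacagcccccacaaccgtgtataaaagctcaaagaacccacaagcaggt
Krt25: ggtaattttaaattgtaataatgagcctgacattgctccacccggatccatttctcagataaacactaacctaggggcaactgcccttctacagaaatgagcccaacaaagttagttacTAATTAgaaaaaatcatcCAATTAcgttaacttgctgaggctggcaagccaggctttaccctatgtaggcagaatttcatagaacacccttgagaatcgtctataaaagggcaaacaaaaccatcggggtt
Krt71: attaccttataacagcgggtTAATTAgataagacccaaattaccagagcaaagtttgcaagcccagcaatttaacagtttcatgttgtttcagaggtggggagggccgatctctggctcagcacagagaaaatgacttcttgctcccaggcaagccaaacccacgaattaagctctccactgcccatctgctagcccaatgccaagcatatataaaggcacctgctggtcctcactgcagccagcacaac

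In Krt28 the TAATTA begins 138 bases before the start and the CAATTA 118 bases before it, and in Krt25 they begin 131 and 113 bases before it. Of 32851 promoter windows of the same length, 4.84% hold TAATTA, 7.17% hold TAATTG and 0.755% hold both on either strand. The Krt71 window holds TAATTA, 230 bases before the start, and AGATAA, a letter string of the GATA class, which begins 225 bases before it and shares its first letter with the last of the TAATTA. Of all windows, 9.99% hold AGATAA. Distances count from the RefSeq start, and the Krt71 window overlaps the end of the gene span given above, which is from GENCODE. The Krt25, Krt27 and Tchh windows also hold AGATAA, and those of Krt27 and Tchh hold no TAATTA or TAATTG. A match of letters is a description of the window and was not tested as a binding site.

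The levels of the genes that chose the cells are given as a description, without a test. UMIs were counted at the 3′ end of transcripts, so 1 transcript gives at most 1 count whatever its length, and levels are CPM of all UMIs of the summed cells. Krt28 stood at 698 in KO mouse 1 and 633 in KO mouse 2, with exact 95% Poisson intervals of 672 to 725 and 614 to 652. Krt27 stood at 147 and 144, and both genes were at similar levels in the 2 mice. Krt35 stood at 307 in KO mouse 1 and at 129 in KO mouse 2, and Krt25 at 216 and 341.

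**Figure D1:**
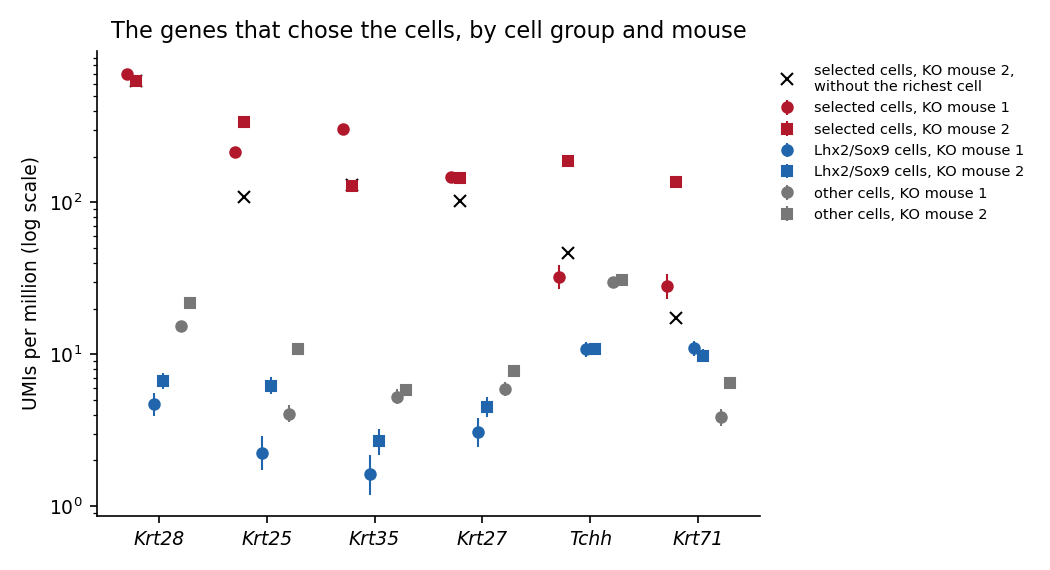
CPM (vertical log axis) of the genes that chose the cells, in the selected cells, in cells with Lhx2 and Sox9 UMIs and in all other cells. Circles are KO mouse 1 and squares KO mouse 2, lines are exact 95% Poisson intervals, and crosses are KO mouse 2 without its richest cell. Krt28 is the highest gene of the selected cells in both mice, and the crosses fall far below the squares for Krt25, Tchh and Krt71.

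In KO mouse 2, Krt71 and Tchh depended on a single cell. Krt71 stood at 28.04 CPM in KO mouse 1 and 136 in KO mouse 2, and Tchh at 32.5 and 189. One cell of KO mouse 2 held 3709 UMIs of the 6 genes, with 1589 of Krt25, 968 of Tchh, 809 of Krt71 and none of Krt35. It carried 87.4% of the Krt71, 75.4% of the Tchh and 68.5% of the Krt25 UMIs of the selected cells of that mouse. Without it, Krt71 stood at 17.3, Tchh at 46.7 and Krt25 at 108 in KO mouse 2. In KO mouse 1 without its richest cell, Krt71 stood at 17.9, Tchh at 31.6 and Krt25 at 156.

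Outside the selected cells, the 6 genes were lower but not at 0. Krt28 stood at 15.5 and 21.9 CPM in the other cells of KO mouse 1 and 2, and at 14.7 and 13.5 in cells with at least 10 UMIs of the melanocyte genes Pmel and Dct, which are not keratinocytes. Of the selected cells 98.6% and 95.8% held a Krt28 UMI, against 5.99% and 11.1% of the melanocyte-gated cells, with median depths of 14617 and 16506 UMIs against 9083.5 and 10099. The Shh cells, with at least 2 UMIs of Shh, were closer. They held Krt28 at 244 and 215 CPM, with a UMI in 50.4% and 43.0% of cells, and Krt35 at 210.0 and 98.0 CPM. Tchh was different: 14.8% and 17.4% of the selected cells held a UMI, but so did 22.1% and 22.7% of the other cells, where Tchh stood at 29.9 and 30.8 CPM. The Krt71 shares, 9.57% and 15.3%, lay around the 13.0% and 12.5% in the Lhx2 and Sox9 cells. They lay above the 3.73% and 6.50% in the other cells and the 3.84% and 5.98% in the Shh cells. The selected cells held 5.62% and 27.5% of all Tchh UMIs of the kept cells, and 50.9% and 49.0% of all Krt28 UMIs. The Tchh share of KO mouse 2 rested on its richest cell, which held 968 of the 1283 Tchh UMIs.

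Keratins that the rule did not use give a separate check of the label. Of the type II inner root sheath keratins, Krt73 gave 418 UMIs in 56 selected cells, Krt72 gave 3 UMIs in all and Krt74 none. Krt26, a further type I keratin of the sheath, gave 2. Of the hair shaft keratins, Krt86 gave 91 UMIs, Krt32 75, Krt81 26, Krt83 18, Krt33a 11 and Krt36 6, and Krt31 and Krt33b gave 1 each. Krt86 stood at 13.1 and 6.37 CPM against 0.457 and 0.648 CPM in the other cells, whereas Krt32 stood at 8.27 and 6.68 CPM against 8.43 and 5.87 CPM. Against the other cells Krt86, Krt81 and Krt83 were higher by edgeR's test (described below) and the other 6 of 9 hair shaft keratins tested were not called. Against cells with at least 2 Shh UMIs, Krt81 was higher, 1 of the 9 was lower and 7 were not called, and the list summed to 31.2 and 17.0 CPM against 28.8 and 16.7 CPM. Krt73 was not called there either, with 44.5 and 38.1 CPM against 19.9 and 24.2 CPM (log2 0.89). It was higher than in the other cells, which held 1.28 and 2.81 CPM (log2 4.27). It was also higher than in the Lhx2 and Sox9 cells, which held 1.35 and 1.96 CPM (log2 4.60). All keratin-associated protein genes together, which make the matrix of the hardened shaft, gave 50 UMIs. The 3 of them that could be tested summed to 4.0015 and 2.58 CPM. Their sums were 3.01 and 1.79 CPM in the other cells and 11.4 and 4.87 CPM in the Shh cells. Krt75, the companion layer keratin, gave 935 UMIs in 90 cells, of which 654 were in the 7 cells with over 100 UMIs of the 6 genes.

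The share of selected cells was close in both mice, at 2.75% (exact 95% binomial interval 2.39 to 3.14) in KO mouse 1 and 2.80% (2.51 to 3.12) in KO mouse 2, with a mean of 2.78% ± 0.0391 (SD, n = 2). These intervals cover counting error only. The threshold of 10 UMIs cuts through a continuous range, since 113 selected cells held 10 or 11 UMIs of the 6 genes while 106 cells just outside it held 8 or 9. The median Krt28 was 7 UMIs just inside in both mice and 5 and 6 just outside. Before the limit on Shh, 726 cells reached 10 UMIs, and 184 of them (25.3%) held at least 2 UMIs of Shh and were not selected.

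A count threshold favours deep cells. The selected cells had a median of 14617 and 16506 UMIs, against 9906.5 and 10062 in the other cells, 11677 and 11934 in the Lhx2 and Sox9 cells and 12444 and 12820 in the Shh cells. Scrublet called 28 selected cells (5.17%) doublets, against 2.59% of all kept cells. In 38 selected cells, 9 in KO mouse 1 and 29 in KO mouse 2, over 1% of the UMIs were of Krt1 and Krt10, the keratins of the interfollicular suprabasal layers, and these were deeper still, with medians of 37337 and 30213 UMIs. Scrublet called 3 of these 38 doublets. They are called the Krt1 and Krt10 cells, and where they are left out they are removed from the selected cells and from no other group, so that Krt1, Krt10 and genes that go with them must fall in the selected cells, and such values show only how much of a level these cells held. All kept cells shared 34 barcodes between the libraries and the selected cells shared none. Another group of 7 selected cells held over 100 UMIs of the 6 genes and are called the richest cells.

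For tests, UMIs were summed per mouse over the selected cells and over 3 groups that do not overlap with them. These were the Lhx2/Sox9 cells (4848 cells with at least 1 UMI of each of these follicle progenitor genes, at most 1 of Shh and at most 2 of the 6 genes), the Shh cells (1010 cells with at least 2 Shh UMIs) and the other cells (13088). The other cells are every remaining kept cell, and so include basal keratinocytes, melanocytes, Langerhans cells and T cells. Lower markers of those types in the selected cells follow in part from that choice of group. The genes that chose any group were left out of the fit. The 3 comparisons share the selected cells, so they are not independent of each other, and p-values measure the spread between the sums of 2 mice. Levels are given as KO mouse 1 and KO mouse 2, from here on in CPM of the genes in the fit.

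Against the other cells, the selected cells had higher transcripts of the homeobox factors Msx1, Msx2 and Dlx3, of Wnt5a and Bmp4, and of 47 of 48 cell cycle genes tested, and lower transcripts of every basal layer, melanocyte, Langerhans cell and T cell gene tested. Of 13586 genes tested, 5542 differed (40.8%) by edgeR's quasi-likelihood test with an adjusted p under 0.05, with 18.4% of all genes higher and 22.4% lower. With the mouse as a block 6700 differed, 3100 higher and 3600 lower. With so large a background, a call on 1 gene says little by itself, so sizes and lists are described.

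The gene with the largest rise of at least 50 CPM was Mt4, a metallothionein of stratified epithelia. It stood at 119 and 93.8 CPM in the selected cells and at 2.16 and 3.76 CPM in the other cells, a log2 fold change of 5.12 ± 0.29 (SE, adjusted p = 1.4e-05). Msx1, a homeobox factor, stood at 60.0 and 47.2 CPM against 1.28 and 2.04 CPM (log2 4.96 ± 0.22). Cldn10, a tight junction claudin, stood at 95.2 and 76.0 CPM against 3.10 and 4.32 CPM (log2 4.50 ± 0.21). These 3 genes were named for the size of their rise and its direction in both mice.

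Krt75 stood at 105 and 81.9 CPM against 10.6 and 3.43 CPM (log2 3.76 ± 0.59), and at log2 2.115 without the 7 richest cells. Wnt5a, a secreted ligand of the non-canonical Wnt branch, stood at 60.8 and 57.5 CPM against 3.98 and 5.10 CPM. The homeobox factors Msx2 (log2 3.15) and Dlx3 (log2 3.02) and the ligand Bmp4 (log2 3.00) followed. Myb (log2 2.99), Pcdh7 (log2 2.74) and Hopx (log2 2.54) were also among the 12 genes with the largest rises. The genes named here kept their direction and call under every alternative setting that was tested.

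Among the largest falls were genes of other cell types. The complement genes C1qa and C1qb fell by log2 8.06 and 7.56, Ctss by 7.05, Fcer1g by 6.86, Cd74 by 6.71 and Tyrobp by 6.28, all genes of Langerhans cells and other myeloid cells. The sebaceous gene Cidea fell by 5.17 and the melanocyte genes Pmel and Mlana by 4.65 and 4.48. Vim, an intermediate filament gene of cells that are not keratinocytes, stood at 10.1 and 21.2 CPM in the selected cells and at 607 and 503 CPM in the other cells. Cyp2g1 and Ptgds, the others of the 12, fell by 6.95 and 4.96.

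The marker lists of other cell types stood low in the selected cells. The 8 melanocyte genes summed to 42.4 and 52.4 CPM against 760 and 961 CPM, all 8 lower. The 7 Langerhans cell genes that were tested summed to 2.93 and 5.31 CPM against 551 and 444 CPM, all 7 lower, and Cd207 was at 0 UMIs. All 4 T cell genes tested were lower, 6 of 7 sebaceous gland genes and 2 of 4 Merkel cell genes. Of 5 dermal genes 3 were lower and Lum, a proteoglycan gene, was higher (log2 1.96). The hemoglobin genes gave 1 UMI in all.

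Of 21 transcription factors known from the inner root sheath, cuticle and shaft, 15 were higher, 2 lower and 4 were not called, and their median log2 fold change was 1.06 against -0.05 for all genes tested. Cux1, a factor of the inner root sheath and matrix, was the most abundant, with 663 and 749 CPM against 123 and 144 CPM in the other cells (log2 2.40 ± 0.10). Foxn1, the factor behind the nude phenotype, rose by log2 2.94, Dlx1 by 2.68, Dlx2 by 2.48, Dlx4 by 2.35 and Hoxc13, which controls hair keratin genes, by 2.07. Gata3, which the inner root sheath needs, stood at 184 and 173 CPM against 154 and 130 CPM and was not called (log2 0.33).

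**Figure D2:**
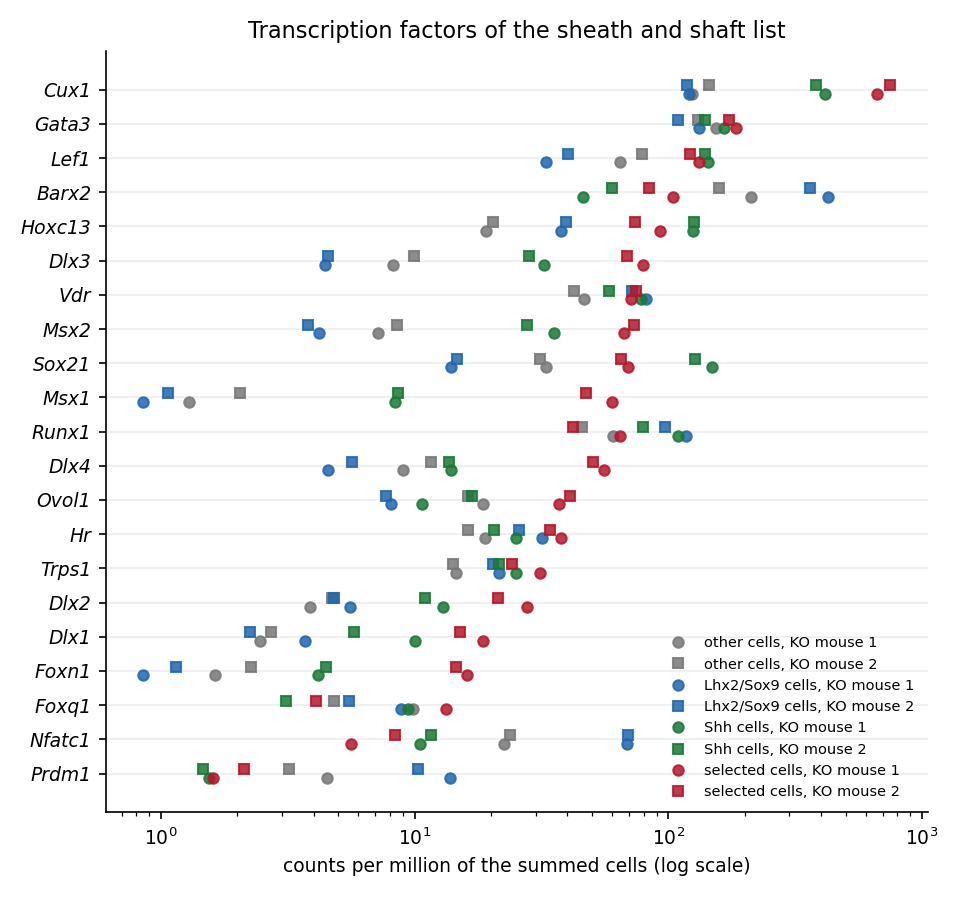
CPM (horizontal log axis) of the 21 transcription factors of the list, in order of their level in the selected cells, with 1 point per mouse and cell group. The selected cells (red) lie to the right of all other groups in both mice for Msx1, Msx2, Dlx1 to Dlx4, Foxn1, Cux1 and Ovol1, and to the left of the Lhx2/Sox9 cells (blue) for Barx2, Nfatc1, Runx1 and Prdm1.

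Cell cycle genes rose together. All 24 genes of the G2/M list were higher than in the other cells, with a median of log2 1.18, and 23 of 24 S phase genes, with a median of log2 1.03. Mki67, which encodes a nuclear protein of dividing cells, stood at log2 1.57 above the other cells, Aurkb at 1.55 and Ccna2 at 1.45, and of the S phase genes Rrm2 at 1.78, Clspn at 1.55 and Cdc6 at 1.46. Gins2 was the S phase gene that was not called. Removing the Krt1 and Krt10 cells, the 7 richest cells or the called doublets left 24 of 24 and 23 of 24 genes higher.

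Since the selected cells were deeper, each cell was also thinned to 3000 UMIs. A Mki67 UMI was then found in 66.5% (exact 95% binomial interval 59.7 to 72.9) of the selected cells of KO mouse 1 and 66.7% (61.3 to 71.7) of KO mouse 2. The same share was 19.0% and 18.8% in the other cells, 33.7% and 29.95% in the Lhx2/Sox9 cells and 41.2% and 32.8% in the Shh cells. In cells with at least 20 UMIs of Lor, a gene of the non-dividing granular layer, it was 22.2% (11.2 to 37.1) of 45 cells and 15.3% (7.22 to 27.0) of 59 cells, which is near the level in the other cells. Without thinning the shares in the selected cells were 86.6% and 89.8%. Thinning left out no selected cell, and 81 and 204 of the other cells.

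**Figure D3:**
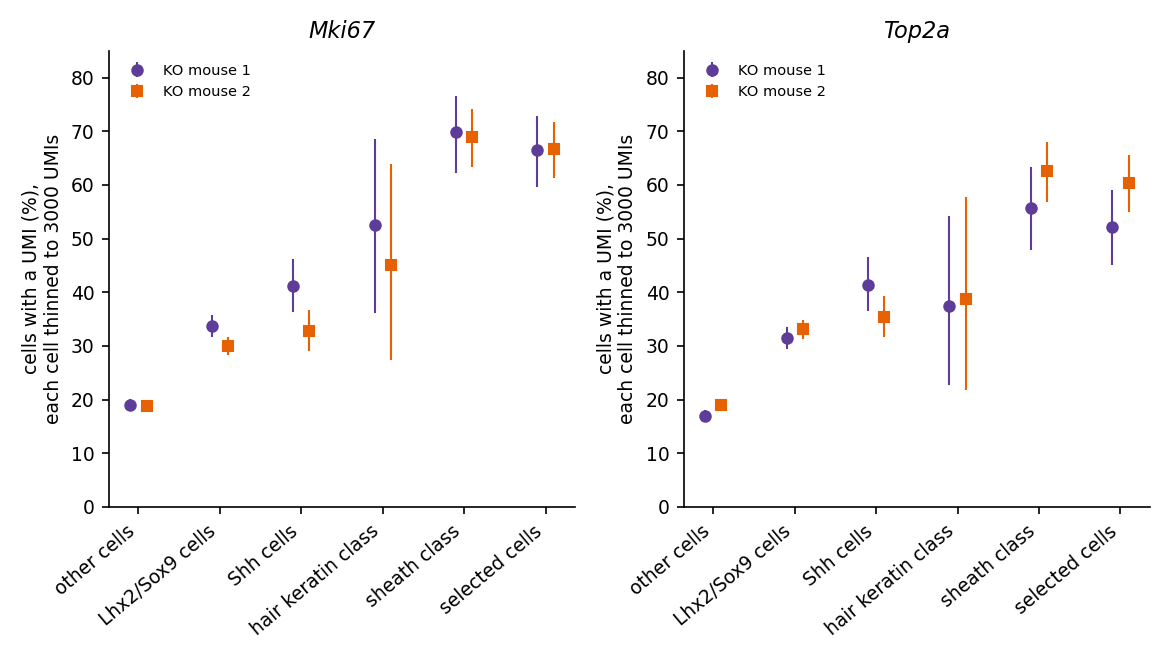
Share of cells (vertical axis, in percent) with at least 1 UMI of Mki67 or Top2a after each cell was thinned to 3000 UMIs, by cell group and mouse, with exact 95% binomial intervals that cover counting error only. The selected cells lie at 66.5% and 66.7% for Mki67, above the other cells, Lhx2/Sox9 cells and Shh cells in both mice.

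All 13 basal epidermis genes were lower, with a median of log2 -2.17. Krt14, the basal keratin, stood at 866 and 1351 CPM in the selected cells and at 7676 and 8744 CPM in the other cells, and Col17a1, Lama3 and Dst, of hemidesmosomes and their laminin, were lower (log2 -2.85, -2.31 and -2.17). Of 14 interfollicular differentiation genes tested, 1 was higher, 3 lower and 10 were not called. Without the Krt1 and Krt10 cells 9 of the 14 were lower and none higher, with a median of log2 -1.52 in place of -0.53.

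Signalling genes were called in both directions, where 18.4% of all genes tested were higher and 22.4% lower. The falls in the 3 lists below lay not far above that share. The median log2 fold changes of the Notch, Wnt, and Bmp and Tgf-beta lists were -0.21, 0.14 and 0.24, against -0.05 for all genes. Of 15 Notch pathway genes 6 were higher, among them the target Heyl (log2 2.96), the receptor Notch3 (log2 1.19) and the feedback gene Nrarp (log2 0.99), and 4 lower. Of 22 Wnt pathway genes 9 were higher and 6 lower, with Wnt5a and Wnt11 (log2 2.65) among the rises and Wnt16 (log2 -2.89) and Wnt7b (log2 -2.02) among the falls. Of 19 Bmp and Tgf-beta pathway genes 9 were higher and 6 lower: the ligand Bmp4 and the targets Id1 (log2 1.04), Id3 (log2 1.09) and Smad7 (log2 1.38) rose, while the inhibitor Fst fell by log2 2.49.

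The Lhx2/Sox9 cells, which hold at most 2 UMIs of the 6 genes, were compared with the selected cells to see what differs from other cells with follicle progenitor transcripts. Of 13586 genes 4413 differed (32.5%), 14.9% higher and 17.6% lower. With the mouse as a block 5717 differed, 2795 higher and 2922 lower. Mt4 (log2 6.84), Cldn10 (log2 5.96) and Msx1 (log2 5.77) again led, each with levels under 2 CPM in the Lhx2/Sox9 cells of both mice. Wnt5a (log2 4.25), Msx2 (log2 4.13) and Dlx3 (log2 4.04) followed. Mt2, a metallothionein, stood at 1090 and 1389 CPM against 95.3 and 126 CPM (log2 3.48 ± 0.20), and Paqr5, a progestin receptor gene, at 152 and 177 CPM against 19.3 and 18.5 CPM.

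Of the follicle progenitor factors 10 of 12 tested were lower in the selected cells, and of 9 companion and outer root sheath keratins 4 were lower, 1 higher and 4 not called. Ncam1, a cell adhesion gene, fell by log2 3.61 ± 0.27, from 100 and 80.8 CPM in the Lhx2/Sox9 cells to 5.87 and 8.35 CPM. Nfatc1, which is counted in the sheath and shaft list and is also a factor of quiescent bulge stem cells, fell by 3.25, the Wnt and Bmp inhibitor Sostdc1 by 3.27, the stem cell gene Lrig1 by 2.71 and Tbx1 by 2.79. Of the other progenitor factors Ptn was higher (log2 0.59) and 1 was not called, and the list had a median of log2 -1.98 against -0.02 for all genes. Lgr5 and Lgr6, receptors of stem cell compartments, fell by 2.18 and 2.20. Lhx2 and Sox9, which chose the other group, were not tested, and Lhx2 was found in 89.5% and 90.7% of the selected cells, against 22.6% and 25.4% of the other cells and 14.3% and 18.0% of the melanocyte-gated cells. Sox9 was found in 15.3% and 16.5% of the selected cells, against 22.8% and 20.4% of the other cells and 9.45% and 12.02% of the melanocyte-gated cells, and 4 selected cells of each mouse held at least 10 UMIs.

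The same comparison gave 13 of 21 sheath and shaft factors higher and 4 lower (Barx2, Nfatc1, Prdm1 and Runx1), 20 of 24 G2/M genes and 16 of 24 S phase genes higher, and all 13 basal genes lower. The median of the G2/M list was log2 0.51. Of 14 interfollicular differentiation genes 8 were higher, with Krt1 at log2 2.93 and Krt10 at 2.51, but without the Krt1 and Krt10 cells 2 of 14 were higher and the median moved from 1.17 to -0.13. Likewise 7 of 14 desmosome genes were higher with these cells and 3 without them. Beyond the 3 doublet calls, whether those 38 cells are mixtures of cells was not tested.

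Against the Shh cells 2489 of 13586 genes differed (18.3%), with 8.57% higher and 9.75% lower. With the mouse as a block 3696 differed, 1902 higher and 1794 lower. Of these Shh cells 184 passed 10 UMIs of the 6 genes, so the groups were not separated by the keratins alone. Msx1 (log2 2.65 ± 0.23), Cldn10 (log2 2.40) and Wnt5a (log2 2.15) were again higher in the selected cells, with Prnp, the prion protein gene, at 174 and 182 CPM against 38.9 and 49.8 CPM (log2 2.00 ± 0.11). Klk7, Dlx4 and Paqr5 were also among the 12 largest rises. Of the other 5 of the 12, Krt75 (log2 2.72, and 1.08 without the 7 richest cells, adjusted p = 0.35) and Crct1 (log2 2.33, and 1.08 without them, adjusted p = 0.068) were not called by edgeR without those cells. The rest were Krt1, Lgals3 and Cst6. Without the Krt1 and Krt10 cells, Krt1 went from log2 1.81 to -1.64, Lgals3 from 1.77 to -0.51 and Cst6 from 2.17 to 0.83, and none was called. The Krt1 and Krt10 cells were removed from the selected cells alone, so these falls show only how much of each level they held.

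Among the genes higher in the Shh cells were 11 of the Wnt pathway list. Sp5, a direct Wnt target, stood at 84.8 and 97.0 CPM in the Shh cells and at 9.87 and 3.79 CPM in the selected cells (log2 -3.89 ± 0.29). Bmp2 fell by log2 2.65, Pdgfa, the ligand of dermal PDGF receptors, by 2.51, and Galnt12, Fam13a and Pde4d by 4.60, 4.13 and 3.50. Of 22 Wnt pathway genes 11 were lower, among them Wnt10b (log2 -2.55), Wnt3 (log2 -2.24) and the Wnt inhibitor Notum (log2 -2.06), and 2 were higher, Wnt5a and Wnt4. Of 19 Bmp and Tgf-beta genes 7 were lower and 4 higher, and the Bmp targets Id1 (log2 1.04) and Id3 (log2 1.07) were among the higher ones. Of the 21 sheath and shaft factors 11 were higher than in the Shh cells, 4 lower and 6 not called, with a median of log2 0.67, and the lower ones included Hoxc13 (log2 -0.60) and Sox21 (log2 -1.04). Of the cell cycle lists 5 of 24 G2/M genes were higher and 19 not called, with a median of log2 0.25, and 7 of 24 S phase genes were higher, 1 lower and 16 not called. With the mouse as a block 16 of the S phase genes were higher and 1 lower.

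Among themselves, the selected cells fell along a range from Krt28 to Krt35. The 71 cells in which Krt35 made at least 0.5 of the 6-gene sum are called the hair keratin class and the 471 others the sheath class. The sheath class therefore also holds the cells led by Tchh, most of them Krt1 and Krt10 cells. The hair keratin class made 19.1% (exact 95% binomial interval 14.0 to 25.1) of the selected cells in KO mouse 1 and 9.31% (6.41 to 13.0) in KO mouse 2. These intervals cover counting error only and do not hold the spread between animals. With 1 library per mouse, the gap between the 2 mice was not tested. The classes are ends of a range and not types, since 34 cells lay between 0.4 and 0.6 and 141 cells held at least 3 UMIs of both Krt28 and Krt35.

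**Figure D4:**
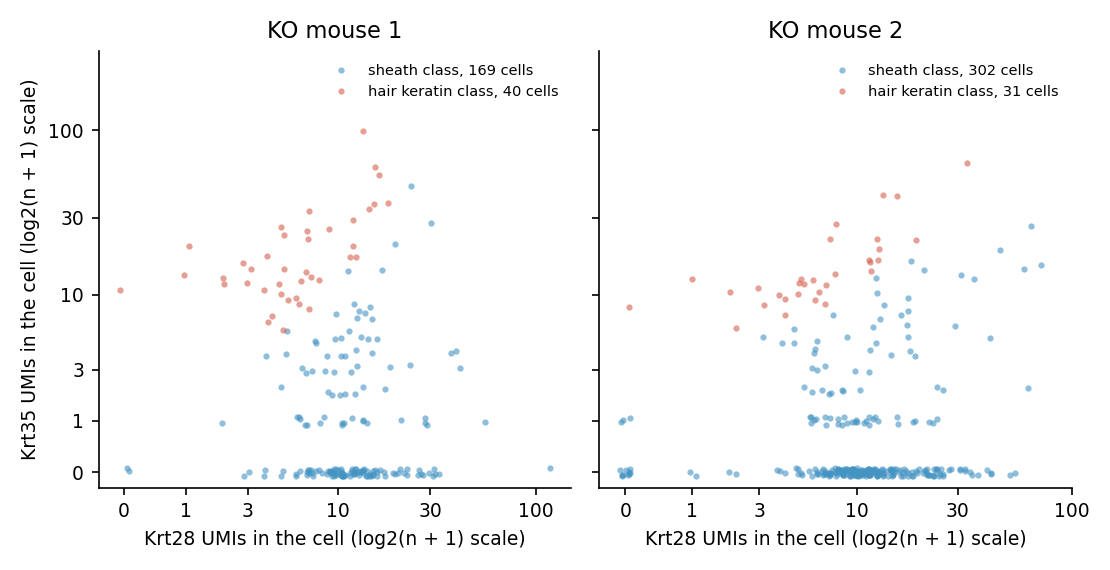
UMIs of Krt28 (horizontal) and Krt35 (vertical) in each selected cell, both on a log2(n + 1) scale with a small random shift, for the 209 cells of KO mouse 1 and the 333 cells of KO mouse 2. The hair keratin class (red) and the sheath class (blue) meet without a gap, and a Krt35 UMI was found in 108 and 115 cells, in that order.

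Within the hair keratin class, Krt28 was still detected in 97.5% and 96.8% of cells, at 422 and 381 CPM. Krt25 was low there, at 14.9 and 8.96 CPM against 259 and 377 in the sheath class, or 187 and 119 there without the richest cell of each mouse. These genes set the classes, so the difference is a description.

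Outside the 6 genes, 89 of 12664 genes (0.703%) differed between the classes, 57 higher in the hair keratin class (0.450%) and 32 higher in the sheath class (0.253%). With the mouse as a block, 181 differed. The balance turned with the classes cut at 0.8 and 0.2 (42 higher and 105 lower), after thinning (7 and 14) and without a filter on low counts (164 and 224). Most of the 89 calls were lost in some settings. Of the 89, 22 were called with the cut at 0.8 and 0.2, 11 after thinning and 31 in cells with at least 20 UMIs. Odc1, the rate-limiting enzyme of polyamine synthesis, differed most among genes of at least 50 CPM. It stood at 843 and 1004 CPM in the hair keratin class against 112 and 124 CPM in the sheath class, a log2 fold change of 2.96 ± 0.16 (adjusted p = 3.8e-05). Sat1, an enzyme of polyamine breakdown, stood at 429 and 480 CPM against 138 and 115 CPM (log2 1.85 ± 0.13). Both genes passed under every alternative tested.

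Of the hair shaft keratins outside the rule 6 could be tested and none was called between the classes, but their median was log2 2.265 and the list summed to 72.9 and 39.6 CPM in the hair keratin class against 21.2 and 14.0 CPM in the sheath class. Krt86, the most abundant of them, stood at 32.1 and 24.4 CPM against 8.68 and 4.30 CPM (log2 2.23 ± 0.53, adjusted p = 0.12). Hoxc13, a factor of the shaft, was higher in the hair keratin class and stood at 206 and 137 CPM against 66.5 and 65.4 CPM (log2 1.38 ± 0.15). Lef1, the Wnt effector of shaft precursors, stood at 239 and 233 CPM against 106 and 107 CPM (log2 1.15 ± 0.14), and Notch1 at 261 and 312 CPM against 135 and 137 CPM (log2 1.07 ± 0.11). Unc5b (log2 2.64), Bmp2 (log2 2.04), Bambi (log2 1.88), Bmp4 (log2 0.96) and Trps1 (log2 1.41) were higher, as was Notum, at 23.3 and 12.2 CPM against 1.29 and 1.82 CPM (log2 3.45). One keratin-associated protein gene, Krtap8-1, was detected at 13.1 and 10.7 CPM in the hair keratin class and at 0.321 and 0 CPM in the sheath class (log2 6.70 ± 1.06). It was called among the 2 genes of its family that could be tested. Mt4 and Cldn10, already high in the selected cells, rose by log2 1.39 and 1.24 in the hair keratin class.

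**Figure D5:**
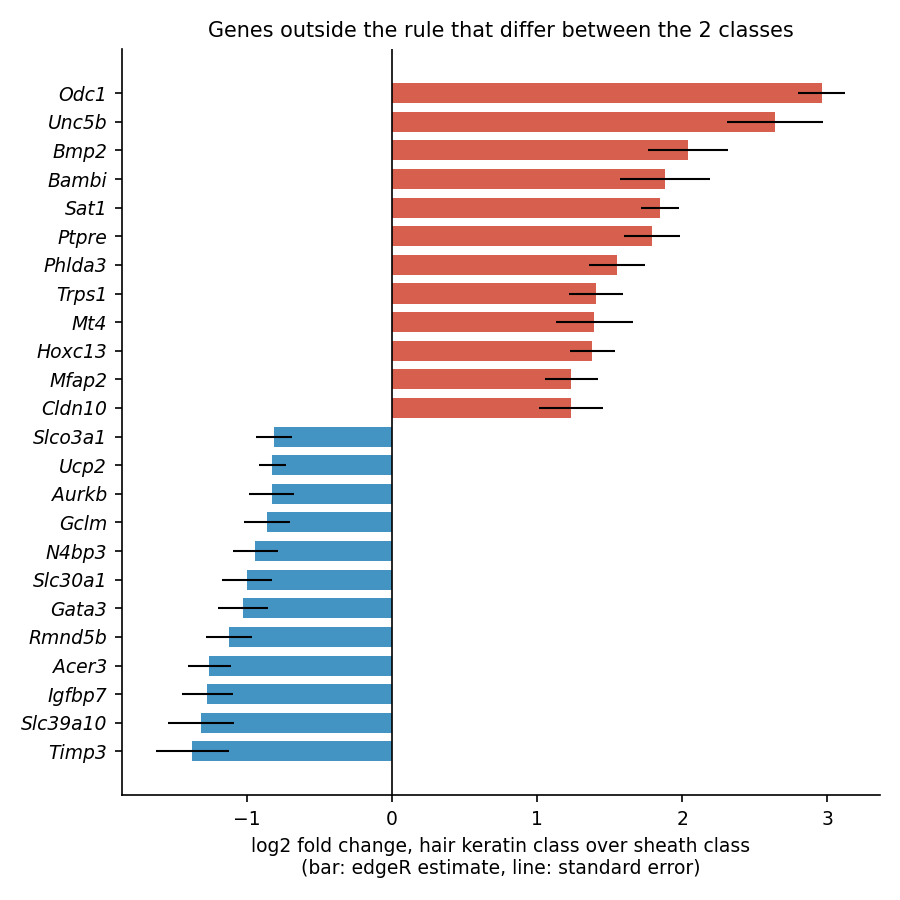
Log2 fold change between the hair keratin class and the sheath class (horizontal axis) for the 12 genes with the largest called difference in each direction among genes of at least 50 CPM, with bars for the edgeR estimate and lines for its standard error. Red bars are higher in the hair keratin class, led by Odc1 at 2.96, and blue bars are higher in the sheath class, led by Timp3 at -1.38.

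In the sheath class, Gata3 stood at 202 and 178 CPM against 88.9 and 97.5 CPM in the hair keratin class (log2 -1.03 ± 0.17), and Cux1 at 701 and 770 CPM against 440 and 419 CPM (log2 -0.78 ± 0.10). Timp3, a metalloproteinase inhibitor, differed most (log2 -1.38), followed by the zinc transporter Slc39a10 (log2 -1.32), Igfbp7 (log2 -1.27) and the ceramidase gene Acer3 (log2 -1.26). Ucp2, Slc30a1, Gclm and Rmnd5b were also higher in the sheath class. Of the cell cycle lists, Mki67 (log2 -0.54), Aurkb (log2 -0.83), Pcna (log2 -0.60) and Gmnn (log2 -0.58) were lower in the hair keratin class and none was higher. Aurkb was not called without the 7 richest cells (log2 -0.85). At 3000 UMIs per cell Mki67 was found in 52.5% and 45.2% of the hair keratin class and in 69.8% and 68.9% of the sheath class, and with 40 and 31 cells these intervals are wide.

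Of 21 sheath and shaft factors, 3 were higher in the hair keratin class (Hoxc13, Lef1 and Trps1), 2 in the sheath class (Gata3 and Cux1) and 16 were not called. Msx1, Msx2, Dlx3 and Foxn1 were among the 16, at log2 0.47, 0.60, -0.02 and 0.52. The median of the list was log2 0.47 against -0.02 for all genes. Krt73, at 2.92 and 4.57 CPM in the hair keratin class and 53.0 and 41.0 CPM in the sheath class, was not called (log2 -3.63).

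To see what moves with the amount of keratin, the sheath class of each mouse was cut into 3 equal parts by the share of the 6 genes in the UMIs of a cell. The high-share part (56 and 100 cells) was shallower, with medians of 11108 and 13301 UMIs, than the low-share part (57 and 101 cells), with 18659 and 23154. Of 8986 genes 268 differed (2.98%), 1.09% higher and 1.89% lower in the high-share part. With the mouse as a block, 570 differed.

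Krt73, the type II inner root sheath keratin outside the rule, rose most. It stood at 182 and 137 CPM in the high-share part and at 4.98 and 2.28 CPM in the low-share part (log2 5.56 ± 0.29, adjusted p = 8.5e-07). The call held under every alternative tested, none of which thinned the cells. Of 8 trichohyalin and crosslinking genes tested 1 was higher, 3 lower and 4 not called. Padi3, a deiminase that acts on trichohyalin, rose by log2 2.83 ± 0.57, while the transglutaminase gene Tgm3 (log2 -3.93), the cystatin gene Cst6 (log2 -2.51) and the caspase gene Casp14 (log2 -1.98) fell. Without the Krt1 and Krt10 cells Cst6 was not called (log2 -0.93), and Casp14 was not called without the 7 richest cells (log2 -1.80). Mt4 (log2 1.93), Msx1 (log2 1.58), Odc1 (log2 1.43), Notch1 (log2 0.99), Gata3 (log2 0.58), Lef1 (log2 0.88), Ovol1 (log2 0.95) and the Notch target Heyl (log2 2.09) also rose. St14, a membrane protease gene, and Plekhg1 rose by log2 1.74 and 1.60. Others of the 12 largest rises were not called without the 7 richest cells: Krt75 went from log2 4.01 to 1.63, Crct1 from 3.03 to 1.07, Tm4sf1 from 3.01 to 0.23, Klk10 from 2.56 to -0.62, Tap1 from 1.62 to 1.01 and S100a6 from 1.39 to 0.30.

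In the high-share part 5 of 11 interfollicular differentiation genes tested were lower and none was higher, whereas without the Krt1 and Krt10 cells 2 of 11 were higher and none was lower. Krt1 stood at 260 and 1365 CPM against 7486 and 6993 CPM (log2 -3.13), and Krt10 at 461 and 1378 CPM against 8327 and 7169 CPM (log2 -3.06), but without the Krt1 and Krt10 cells these changes were 0.13 and 0.02 and were not called. Krt15, a keratin of basal and bulge cells, fell by log2 2.07, Fst by 1.81, Dst by 1.86 and Lhx2 by 0.58, and Lhx2 was not called without the 7 richest cells (log2 -0.43). Stfa2 and Tmprss4 fell by log2 3.11 and 3.10 and kept their call under every alternative tested. With the Krt1 and Krt10 cells left out, 255 genes differed, and 62.4% of them were higher in the high-share part, in place of 36.6%. Of the calls with these cells, 121 were kept and 147 were lost.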

How the data were processed

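UMI counts per gene and barcode, as deposited by the authors, were used; per the study's methods and processing notes they were made with Cell Ranger 3.0.2 on mm10, and the kit version is given differently by the labels and the methods. The filter asked for at least 900 and at most 7700 genes per cell, with mitochondrial UMIs below 10%. The members and gene lists were chosen with earlier results of these data known. Counts were summed per mouse and cell group, and tested with the quasi-likelihood test of edgeR 4.0.16 (R 4.3.3; TMM, filterByExpr, Benjamini-Hochberg, threshold 0.05), leaving out the genes that chose the groups. DESeq2 1.42.0 was an alternative.

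Each mouse gave 1 sum per cell group, which pairs the groups by animal, and deviations of paired sums correlated at 0.119 to 0.483 over 6 pairs of groups. Genes were named as the 12 largest called changes in each direction with at least 50 CPM in the higher group and the same direction in both mice, and from the lists. Single genes outside the 12 were picked from their list after values were seen. Some genes that met the rule are not reported here. Doublets were scored with Scrublet (scanpy 1.11.5) and called above 0.25, a threshold set after the scores were seen because the automatic one called almost none. The settings that leave out the Krt1 and Krt10 cells or the 7 richest cells were also chosen after seeing the data. Intervals are exact (scipy 1.17.1) and cover counting error only, and a count of 0 was taken to allow 3 counts. Gene positions were from GENCODE M21 (27645 of 27998 genes matched by identifier) and promoters from RefSeq, with 5 of the 6 genes matched. On simulated data with 200 genes changed by log2 2, the test recovered 89% in the comparison with the other cells (13300 genes), 89% with the Lhx2/Sox9 cells (13316), 86.5% with the Shh cells (13276), 72.5% between the classes (12236) and 93% between the keratin shares (8829).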

Additional observations from a re-analysis of the deposited data

Results flagged for a closer look

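Barcodes that the study's filter removed also met the rule on UMIs. In KO mouse 1 these were 34 of 3209 removed barcodes, 5 of 1556 with under 900 genes, 3 of 38 with over 7700 genes and 29 of 2777 with at least 10% mitochondrial UMIs. In KO mouse 2 they were 37 of 3986, with 5 of 1872 under 900 genes, 12 of 41 over 7700 genes and 24 of 3315 with at least 10% mitochondrial UMIs. A barcode can fail more than 1 limit. Together they held 279 and 318 UMIs of Krt71 and Tchh, and 7 and 5 of them held at least 10. The 5 barcodes of KO mouse 1 with under 900 genes held 182 UMIs of Krt71 and Tchh and 8 of Krt28, at a median of 1577 UMIs. Whether they are cells was not tested.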

How the results depend on the processing

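Among the 12 largest changes in each direction, 240 of 240 values kept their direction and call against the other cells, and 240 of 240 against the Lhx2/Sox9 cells. Against the Shh cells 233 of 240 values kept both, 5 lost the call and 2 reversed. Between the classes 205 of 264 kept both and 59 lost the call. Between high and low keratin share 169 of 187 kept both, 14 lost the call and 4 reversed. Of 1171 values with a test over all 5 comparisons, 78 lost the call and 6 reversed. With cells thinned to 3000 UMIs, fewer genes were called: 3175 against the other cells, 2252 against the Lhx2/Sox9 cells, 1196 against the Shh cells and 21 between the classes. Between the classes 232 genes were called by DESeq2, 388 without a filter, 181 with the replicate block, 51 in cells with at least 20 UMIs and 147 with classes cut at 0.8 and 0.2. Between high and low keratin share 110 were called by DESeq2, 549 without a filter and 570 with the replicate block. Of the genes called between the classes 64.0% were higher in the hair keratin class, against 42.3% without a filter, 33.3% after thinning and 28.6% with the classes cut at 0.8 and 0.2. Without the Krt1 and Krt10 cells, Krt1 (log2 -1.64) and Lgals3 (log2 -0.51) reversed against the Shh cells, and Krt1 (log2 0.13), Krt10 (log2 0.024) and Serpinb12 (log2 0.82) between high and low share. Klk10 reversed there (log2 -0.62) without the 7 richest cells. The Krt1 and Krt10 cells were removed from the selected cells and not from the Shh cells, so the fall of Krt1 against the Shh cells follows from that choice. The cause of the other changes was not tested. The share of members, meaning the selected cells, was 4.96% at 5 or more UMIs, 0.948% at 20 or more, 2.11% with Shh at 0, 3.76% with no limit on Shh, 4.45% at under 5% mitochondrial UMIs, 2.70% without called doublets and 2.59% without the Krt1 and Krt10 cells. The hair keratin class made 22.1% of the selected cells at 20 or more UMIs, 26.1% with the class cut at 0.2 and 2.21% at 0.8. With each mouse left out in turn, the share of members was 2.75% to 2.80% and that of the hair keratin class 9.31% to 19.1%. Leaving out a mouse leaves the tests without residual degrees of freedom, so only fold changes remained.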
